A study of Mus musculus with 16 samples.

Results

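Intronic H3K27Ac enhancers are described here, that is, peaks of histone H3 acetylated at lysine 27 that lie within an intron and away from a gene start. A peak was counted as one when its deposited annotation read intron, its distance to the nearest transcription start exceeded 3000 bp, its width was below 2500 bp and its input height was below 10 reads. Of 53959 H3K27Ac peaks in 4 lists, 6761 met this rule. The lists came from adult cardiomyocytes, the contractile cells of the heart, which were obtained from mice 3 months of age by perfusing the heart with enzymes. The mice were either Des+/+, with intact desmin, or Des-/-, without this muscle intermediate filament protein in any cell. Cells were taken from mice that had not swum (basal) or after swimming exercise (swim). The 4 groups were therefore Des+/+ basal, Des-/- basal, Des+/+ swim and Des-/- swim, each with 1 H3K27Ac library made from chromatin pooled from several mice and 1 input library, which is chromatin sequenced without precipitation. No group had a replicate, so no difference between groups could be tested, and every interval given with a share is a 95% Wilson interval that covers counting error only.

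H3K27Ac is written by the acetyltransferases p300 and CBP and is found at active promoters and at active enhancers, which are stretches of DNA that bind transcription factors and act on gene starts from a distance. Introns hold many such elements, some serving the gene they lie in and others serving neighbours. In heart muscle, factors of the GATA, MEF2, T-box, NKX2, TEAD and nuclear receptor families are known to act through distal elements, and ETS factors do so in endothelial cells. A H3K27Ac peak alone does not measure enhancer activity, and "enhancer" is used below only as the name of peaks chosen by position.

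The sequences that follow show what these elements look like, with regions in all 4 lists, in the lists of 1 condition or of 1 genotype only, and in all lists but Des-/- swim, an endothelial and a cardiomyocyte gene among them. Each is the 300 bases around the deposited summit of the highest qualifying peak, read 5′ to 3′ on the plus strand of the mouse build GRCm38. Capitals mark matches, on either strand, to any of 8 motifs searched, which were AGATAA for GATA factors, GGAATG for TEAD factors, AGGTGT for T-box factors, AAGGTCA for a nuclear receptor half-site, TGANTCA for AP-1, CNGGAAG for ETS factors, TNAAGTG for NKX2 factors and the MEF2 box. Matches may overlap one another, and a match is a string of letters, not a measured binding site.
D830036C21Rik, near Fosb, in all 4 lists (chr7:19326661-19326960): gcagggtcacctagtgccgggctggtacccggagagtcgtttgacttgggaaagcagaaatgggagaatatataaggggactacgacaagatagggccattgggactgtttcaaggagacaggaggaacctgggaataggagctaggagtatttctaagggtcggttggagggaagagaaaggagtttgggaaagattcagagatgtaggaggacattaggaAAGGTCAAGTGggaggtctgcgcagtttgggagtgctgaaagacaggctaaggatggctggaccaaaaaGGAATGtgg
Pecam1, in all 4 lists (chr11:106674939-106675238): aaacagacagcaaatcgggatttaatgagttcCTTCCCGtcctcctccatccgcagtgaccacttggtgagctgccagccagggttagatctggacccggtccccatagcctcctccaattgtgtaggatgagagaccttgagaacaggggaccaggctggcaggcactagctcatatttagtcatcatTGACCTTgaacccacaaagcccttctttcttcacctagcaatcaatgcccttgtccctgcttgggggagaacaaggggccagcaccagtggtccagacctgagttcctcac
Gtf2ird1, in both basal lists only (chr5:134435658-134435957): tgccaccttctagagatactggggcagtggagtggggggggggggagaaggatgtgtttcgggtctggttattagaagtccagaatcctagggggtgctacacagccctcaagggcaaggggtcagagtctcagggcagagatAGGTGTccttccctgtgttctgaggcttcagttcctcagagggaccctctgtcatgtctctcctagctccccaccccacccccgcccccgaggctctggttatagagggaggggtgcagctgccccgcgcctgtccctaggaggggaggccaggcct
Fam13a, in both Des+/+ lists only (chr6:59011049-59011348): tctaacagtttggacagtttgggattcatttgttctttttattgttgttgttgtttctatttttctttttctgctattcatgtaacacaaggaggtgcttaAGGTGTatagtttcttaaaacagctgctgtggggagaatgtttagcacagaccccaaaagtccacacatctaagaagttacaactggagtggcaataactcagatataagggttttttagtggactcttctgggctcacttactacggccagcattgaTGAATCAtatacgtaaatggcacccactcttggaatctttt
Rasa3, in both Des-/- lists only (chr8:13668030-13668329): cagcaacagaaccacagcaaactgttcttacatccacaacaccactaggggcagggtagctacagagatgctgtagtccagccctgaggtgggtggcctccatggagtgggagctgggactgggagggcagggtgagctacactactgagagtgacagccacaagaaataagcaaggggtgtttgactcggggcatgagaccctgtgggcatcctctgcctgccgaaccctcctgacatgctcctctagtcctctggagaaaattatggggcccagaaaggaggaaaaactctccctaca
Trak1, in all but Des-/- swim (chr9:121351243-121351542): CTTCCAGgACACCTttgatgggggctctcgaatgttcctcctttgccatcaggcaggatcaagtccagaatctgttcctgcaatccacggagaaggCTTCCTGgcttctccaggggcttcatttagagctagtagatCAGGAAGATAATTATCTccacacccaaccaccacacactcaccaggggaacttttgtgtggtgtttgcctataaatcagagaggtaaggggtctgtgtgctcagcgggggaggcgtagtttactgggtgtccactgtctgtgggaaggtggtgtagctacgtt
Actn2, in all but Des-/- swim (chr13:12322767-12323066): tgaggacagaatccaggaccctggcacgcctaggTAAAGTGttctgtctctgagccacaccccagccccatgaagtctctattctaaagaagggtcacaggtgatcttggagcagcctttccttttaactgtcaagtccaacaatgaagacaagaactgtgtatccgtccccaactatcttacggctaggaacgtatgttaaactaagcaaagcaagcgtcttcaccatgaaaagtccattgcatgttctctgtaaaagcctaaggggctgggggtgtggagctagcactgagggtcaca

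The region near Fosb, which encodes an AP-1 subunit, held a TEAD, a nuclear receptor and an NKX2 match, and the Pecam1 window held a nuclear receptor and an ETS match. Trak1 encodes an adaptor for mitochondrial transport, and its window held 2 GATA, 1 T-box and 3 ETS matches. The Actn2 window, in the gene of the Z-disc protein α-actinin, held an NKX2 match, and that of Gtf2ird1 a T-box match. The Fam13a window held a T-box and an AP-1 match. The Rasa3 window held no match to the 8 motifs, which says only that these letters were not in these 300 bases.

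Over the 3316 regions formed by merging the overlapping enhancers of the 4 lists, the ETS motif was the most frequent of the 8, in 27.6% of windows (26.1 to 29.1). It was in 21.5% (20.5 to 22.6) of 5935 flanking windows placed 5 kb to either side without a H3K27Ac peak, and in 31.9% of all 32851 RefSeq promoter windows of the same length. The TEAD motif was in 18.3% of the intronic windows (17 to 19.7) against 15.5% of the flanks (14.6 to 16.5) and 14.7% of promoters. The nuclear receptor half-site was in 7.45% (6.60 to 8.39) against 5.80% (5.23 to 6.42) and 4.72%. For these 3 motifs the counting intervals of enhancers and flanks did not overlap. The GATA motif stood the other way, in 14.2% of enhancers (13.1 to 15.5), 16.1% of flanks (15.2 to 17.1) and 11.2% of promoters, with intervals that overlapped. T-box, NKX2, AP-1 and MEF2 matches were in 15%, 14.9%, 8.59% and 0.633% of enhancers and in 16%, 15.9%, 8.68% and 0.556% of flanks. The median GC content was 48.7% in enhancers, 45.7% in flanks and 52.7% in RefSeq promoters, an order shared by the ETS motif and not by the TEAD and nuclear receptor motifs, and its part in the motif shares was not tested. The enhancers were unlike promoters in CpG content. Only 1.54% were CpG-rich, meaning a GC content above 50% with an observed-to-expected CpG ratio above 0.6, against 69.9% of the promoter peaks of Des+/+ basal. Repeats covered most of the window in 6.12% of enhancers and in 16.8% of flanks.

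Intronic enhancers were fewest in Des-/- swim. In Des+/+ basal they numbered 2102 of 15757 peaks (13.3%, 12.8 to 13.9), against 2246 of 16638 for Des-/- basal (13.5%, 13.0 to 14), 1376 of 11157 for Des+/+ swim (12.3%, 11.7 to 13.0) and 1037 of 10407 for Des-/- swim (9.96%, 9.40 to 10.5). The 2 basal shares overlapped in their counting intervals, and the Des-/- swim share lay below the intervals of the other 3 lists. Together the enhancers covered 1.90, 1.98, 1.17 and 0.860 Mb. The lists held 2595, 2787, 1735 and 1321 intron peaks in all, of which the distance limit removed 434, 478, 330 and 259, the width limit 57, 57, 25 and 11, and the input limit 2, 6, 4 and 14. In Des+/+ basal the widest enhancer kept measured 2498 bp and the narrowest peak left out 2513 bp, the nearest kept lay 3002 bp from a start and the farthest left out 2986 bp, and the input heights on either side of the limit were 9 and 10 reads.

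**Figure D1:**
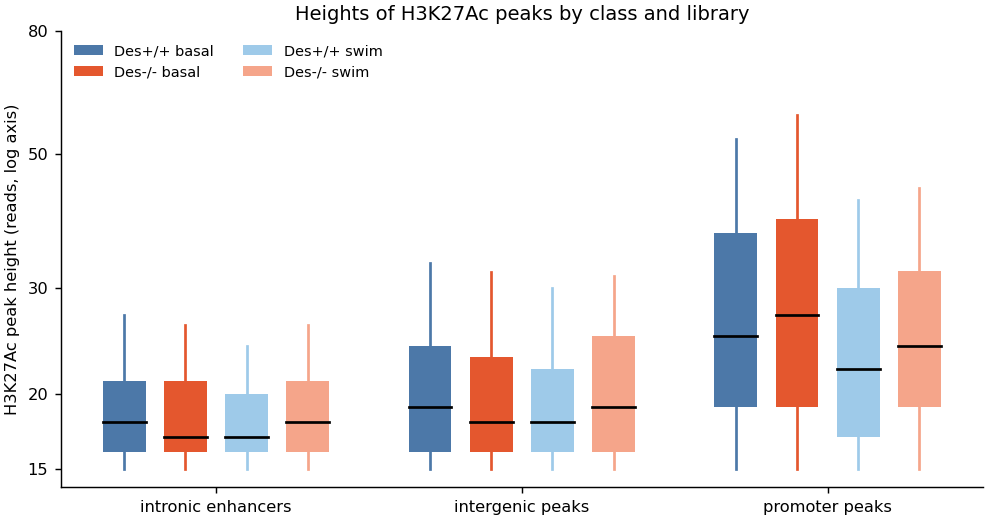
Heights of intronic enhancers, intergenic peaks and promoter peaks in the 4 H3K27Ac lists, in reads on a log axis, with boxes from the lower to the upper quartile, a black line at the median and thin lines from the smallest value to the 90th percentile. Intronic enhancers have medians of 17 to 18 reads in every list, below the promoter medians of 22 to 27 reads.

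The height of a peak is the number of overlapping reads at its top, and no peak below 15 reads was in any list. Median heights lay within 1 read of each other, at 18 and 17 reads in the basal lists of Des+/+ and Des-/- and at 17 and 18 reads in their swim lists. Many enhancers therefore sat at the floor, and 37.1%, 38.5%, 40.0% and 36.5% of them had 15 or 16 reads. A count of 15 reads carries an exact 95% Poisson interval of 8.40 to 24.7 reads, so many of the low enhancers lay within counting error of the floor. Tall enhancers were scarcer in the swim lists, where 35 of 1376 in Des+/+ (2.54%) and 42 of 1037 in Des-/- (4.05%) reached 30 reads, against 130 (6.18%) and 115 (5.12%) in the basal lists. The highest enhancer had 75, 92, 59 and 74 reads. Median widths were 770, 756, 734 and 714 bp. Promoter peaks were taller than intronic enhancers in every list, with median heights of 25, 27, 22 and 24 reads, and intergenic peaks were close to the enhancers at 19, 18, 18 and 19 reads. The mean input height under the enhancers was 2.38, 2.18, 2.29 and 2.47 reads. Under promoter peaks it was 3.16, 3.00 and 3.31 reads in the first 3 lists and 5.62 in Des-/- swim, so that the input of Des-/- swim stood apart at promoters by more than at intronic enhancers. Both classes had been limited to input heights below 10 reads, so these are means of cut values. Over all Des-/- swim peaks the 90th percentile of the input height was 9 reads.

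Most intronic enhancers lay well beyond the 3000 bp from a start that the rule required. The median distance to the nearest start was 14860, 15192, 14647 and 14793 bp in the 4 lists, and 41.7%, 42.0%, 40.9% and 41.6% lay in the first intron of the annotated transcript. The nearest start belonged to the host gene for 77.7%, 77.0%, 77.4% and 75.3% of them. In 73.7% and 73.4% of cases in the basal lists, and 64.2% and 61.5% in the swim lists, the host gene also carried a promoter peak in the same list. A start in the GENCODE vM21 annotation overlapped 3, 2, 3 and 3 enhancers, and lay within 1 kb of 43, 59, 30 and 30. These low numbers are no separate check, because the rule had already removed peaks within 3000 bp of a deposited start.

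The tallest elements were in all 4 lists. The highest region lay in intron 1 of the non-coding gene D830036C21Rik near Fosb (chr7:19325849-19328169), with 109, 92, 59 and 74 reads in Des+/+ basal, Des-/- basal, Des+/+ swim and Des-/- swim; the first of these peaks was too wide to meet the rule. In intron 1 of Litaf, which encodes a protein of endosomal and lysosomal membranes, a region at chr16:11007162-11009786 had 69, 75, 49 and 38 reads. In intron 2 of Rftn1, a lipid raft protein gene, a region at chr17:50141246-50143513 had 75, 63, 48 and 40 reads. A region at chr11:118145827-118147004 had 70, 68, 55 and 44 reads and was annotated to intron 12 of Cyth1, which encodes an exchange factor for ARF GTPases. It lay outside the RefSeq body of that gene, and Dnah17 owned the nearest start. At each of these 4 regions both basal heights were above both swim heights, and Des-/- swim was above Des+/+ swim only near Fosb. In intron 1 of Mb, the gene of the oxygen-storage protein myoglobin, heights were 59, 51, 48 and 40 reads, of which the first belonged to a peak outside the rule.

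A large share of intronic enhancers had no partner in the other genotype, a partner being any H3K27Ac peak that overlapped by at least 1 bp. In the basal pair, 728 of 2102 Des+/+ enhancers had none in Des-/- (34.6%, 32.6 to 36.7), against 14.5% of all Des+/+ basal peaks. Conversely, 836 of 2246 Des-/- enhancers had none in Des+/+ (37.2%, 35.2 to 39.2), against 19.7% of all peaks. In the swim pair, 756 of 1376 Des+/+ enhancers had none in Des-/- (54.9%, 52.3 to 57.6), against 27% of all peaks, and 379 of 1037 Des-/- enhancers had none in Des+/+ (36.5%, 33.7 to 39.5), against 22.2%. The swim pair was thus uneven, with more of the enhancers of Des+/+ than of Des-/- lacking a partner, and the Des-/- swim list was the shorter one.

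Between conditions the asymmetry was larger. In Des+/+, 1190 of 2102 basal enhancers had no swim partner (56.6%, 54.5 to 58.7), against 39% of all peaks, and 348 of 1376 swim enhancers had no basal partner (25.3%, 23.1 to 27.7), against 8.39% of all peaks. In Des-/-, 1536 of 2246 basal enhancers had no swim partner (68.4%, 66.4 to 70.3), against 44.8% of all peaks, and 199 of 1037 swim enhancers had no basal partner (19.2%, 16.9 to 21.7), against 6.28%. In each of these 8 comparisons the share among intronic enhancers was above that among promoter peaks, which was 7.50%, 13.5%, 19%, 20.4%, 33.8%, 3.19%, 37.9% and 2.91% in the same order. Intergenic peaks lay between, at 29.2%, 34.0%, 42.9%, 34.8%, 53.6%, 18.2%, 61.3% and 16.4%. When each pair of lists was reduced to equal numbers of its highest peaks, the shares of basal enhancers without a swim partner were 38.1% in Des+/+ and 40.4% in Des-/-.

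Enhancers without a partner were low and narrow. Their median height was 16 reads in 7 of the 8 comparisons and 17 in the remaining one, Des-/- basal against Des-/- swim, whereas enhancers with a partner had medians of 18 to 21 reads. In Des+/+ basal the median width was 619 bp without and 889 bp with a Des-/- partner. The highest Des+/+ basal enhancer without a Des-/- basal partner had 31 reads, and the highest Des-/- basal enhancer without a Des+/+ basal partner had 29. Where a Des+/+ basal enhancer did have a Des-/- basal partner, that partner was itself an intronic enhancer in 1268 of 1374 cases.

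**Figure D2:**
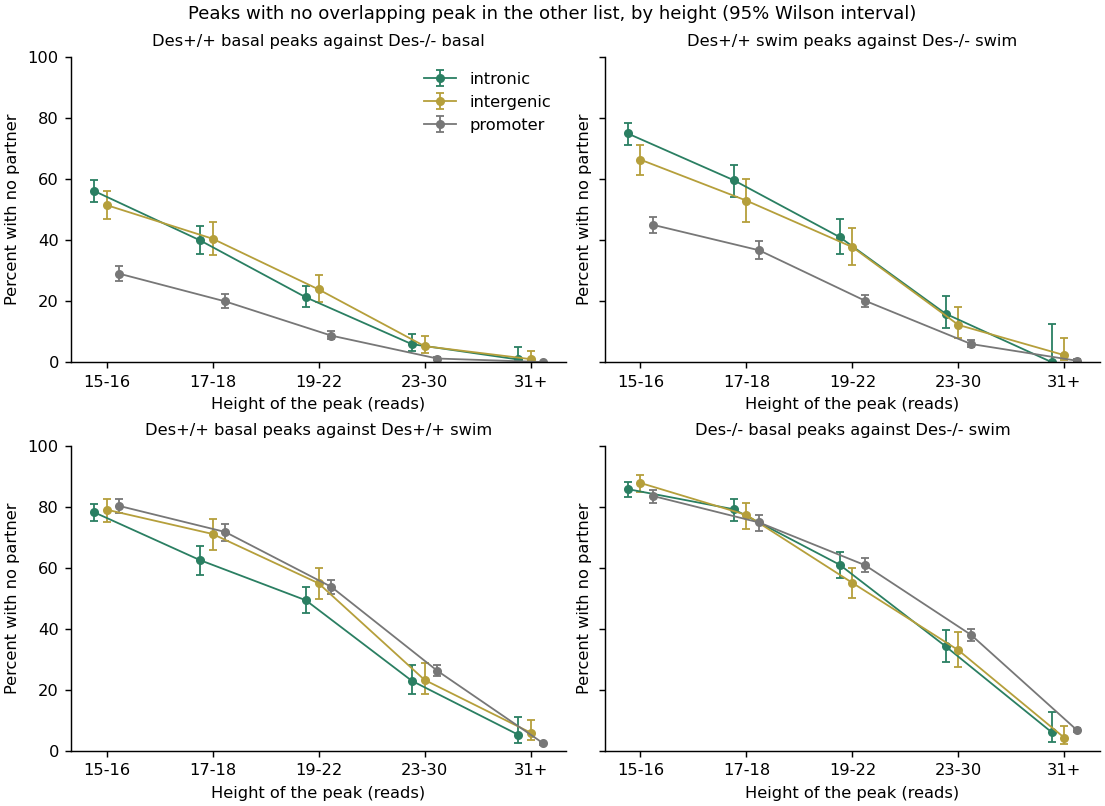
Percent of peaks without a partner (vertical axis, with 95% Wilson intervals) by band of peak height in reads (horizontal axis), for intronic, intergenic and promoter peaks in 4 of the comparisons. Against Des-/- basal the Des+/+ basal intronic share runs from 56.2% at 15 to 16 reads to 0.885% at 31 reads or more, and in the upper panels the intronic points lie above the promoter points up to 30 reads.

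Because enhancers were lower than promoter peaks, the shares were also taken within bands of height, which the plot by height band shows. At 15 to 16 reads, 438 of 780 Des+/+ basal enhancers had no Des-/- basal partner (56.2%), against 51.5% of intergenic and 29.0% of promoter peaks. At 19 to 22 reads the share was 21.2% (109 of 513), against 23.9% and 8.70%, and at 23 to 30 reads 5.90% (17 of 288), against 5.24% and 1.18%. At matched height, intronic and intergenic peaks were therefore close, and both lacked a genotype partner more often than promoter peaks in this comparison. The gap was smaller in the reverse direction, where 57.5% of Des-/- basal enhancers and 48.8% of promoter peaks at 15 to 16 reads had no Des+/+ basal partner, and 24.0% and 20.1% at 19 to 22 reads. In Des+/+ swim against Des-/- swim the shares at 19 to 22 reads were 41.0% for intronic enhancers, 37.7% for intergenic peaks and 20.1% for promoter peaks. The other genotype direction under swimming differed from this, since at 15 to 16 reads 55.7% of Des-/- swim enhancers and 57.0% of promoter peaks had no Des+/+ swim partner, and at 19 to 22 reads 29.3% and 26.9%. Basal peaks without a swim partner did not show this gap. In Des+/+, 78.2% of basal enhancers of 15 to 16 reads and 80.2% of promoter peaks of that height had no swim partner, with 62.5% and 71.7% at 17 to 18 reads and 49.3% and 53.7% at 19 to 22 reads. In Des-/- they were 85.8% and 83.5% at 15 to 16 reads and 61.0% and 60.8% at 19 to 22 reads. Swim peaks without a basal partner did show it. In Des+/+ the shares were 40.1% of enhancers and 11.1% of promoter peaks at 15 to 16 reads and 11.3% and 1.78% at 19 to 22 reads. In Des-/- they were 29.3% and 13.2% at 15 to 16 reads, and 15.7% and 2.4% at 19 to 22 reads.

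**Figure D3:**
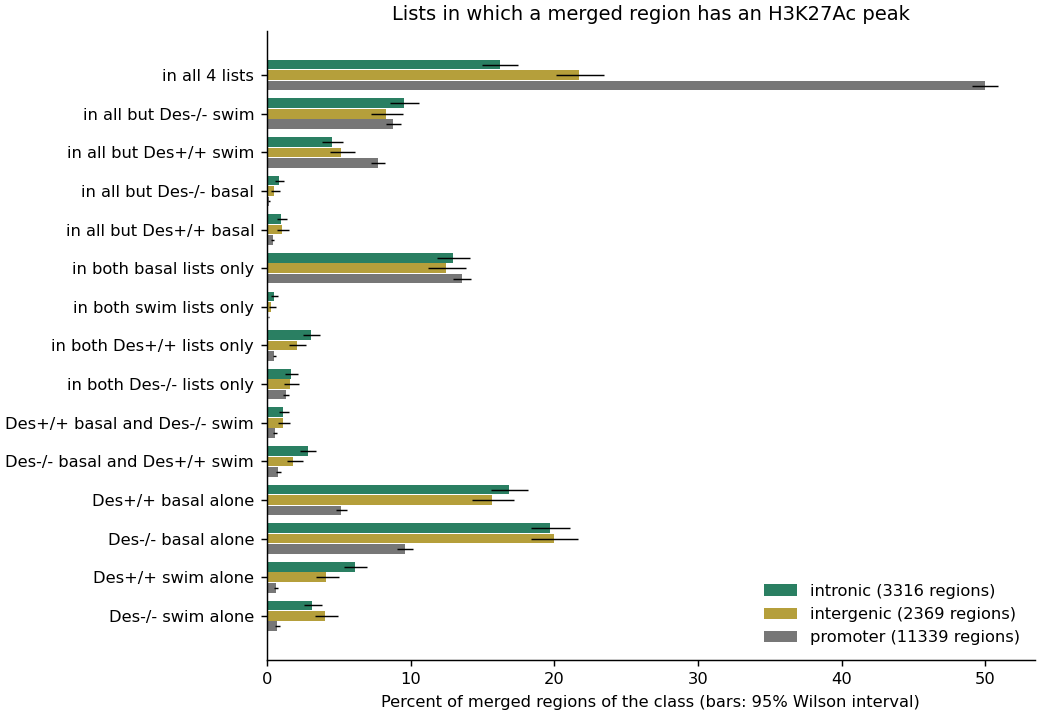
Percent of merged intronic, intergenic and promoter regions (bars, with 95% Wilson intervals) found in each combination of the 4 lists. For the intronic regions the most frequent combinations are Des-/- basal alone, Des+/+ basal alone and all 4 lists, and for promoter regions all 4 lists, at 49.96%.

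Merging the overlapping enhancers of the 4 lists gave 3316 intronic regions, and a list was counted as holding a region when any of its peaks overlapped it. All 4 lists held 537 regions (16.2%, 15 to 17.5), against 21.7% of 2369 intergenic and 49.96% of 11339 promoter regions formed in the same way. A single list held 1520 regions (45.8%), of which Des+/+ basal accounted for 559, Des-/- basal for 653, Des+/+ swim for 203 and Des-/- swim for 105. One or both basal lists and no swim list held 1641 regions (49.5%, 47.8 to 51.2), and one or both swim lists alone held 324 (9.77%, 8.81 to 10.8). The basal-only share was near that of intergenic regions, at 48.1%, and above that of promoter regions, at 28.4%, and the swim-only shares of these were 8.48% and 1.47%. Among the intronic ones, 429 were in both basal lists and 16 in both swim lists. Genotype-only intronic regions numbered 863 in Des+/+ lists alone (26.0%, 24.6 to 27.5) and 813 in Des-/- lists alone (24.5%, 23.1 to 26.0), whereas the Des-/- side was the larger among intergenic regions, at 25.7% against 21.9%, and among promoter regions, at 11.6% against 6.34%. Few of the intronic ones were present in both conditions of the genotype, 101 for Des+/+ (3.05%) and 55 for Des-/- (1.66%). These shares were 2.07% and 1.65% for intergenic regions, and 0.52% and 1.31% for promoter regions. A further 316 intronic regions were in all lists but Des-/- swim (9.53%) and 150 in all but Des+/+ swim (4.52%). Among intergenic regions these shares were 8.27% and 5.19%, and among promoter regions 8.78% and 7.71%. Intronic regions of all 4 lists were tall and broad, with a median of 28 reads at the highest peak and a width of 1753 bp. Those of both basal lists only had 19 reads and 952 bp.

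In the 537 regions of all 4 lists, the deposited heights were lower in the swim lists of both genotypes and close between genotypes. Median heights were 25 reads in both basal lists and 20 in both swim lists. The swim height was below the basal height in 397 regions and above it in 113 in Des+/+, with a median log2 ratio of -0.30, and below in 420 and above in 85 in Des-/-, with -0.32. Between genotypes, the Des-/- height was above the Des+/+ height in 254 regions and below it in 246 in the basal pair, and above in 243 and below in 252 in the swim pair, both with a median log2 ratio of 0. Promoter regions of all 4 lists had median log2 ratios of -0.52 and -0.47 for swim over basal, and 0.13 and 0.18 for Des-/- over Des+/+. Library totals could not be read from the lists, so the lower swim heights and a difference in sequencing depth or in yield of the precipitation cannot be told apart.

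The tallest regions of the shared patterns were ranked by their highest qualifying enhancer. Among regions in both basal lists only, Gtf2ird1, which encodes a transcription factor, had 35 reads in Des+/+ and 22 in Des-/- (chr5:134435383-134436014). Spred2, the gene of an inhibitor of RAS to ERK signalling, had 32 and 15 reads, and the non-coding genes Gm8108 and Gm26759 had 19 and 42, and 33 and 30 reads. At 4933407K13Rik the heights were 41 and 61 reads, the latter from a peak whose input height kept it outside the rule. These regions were well above the floor in at least 1 basal list and without a peak in either swim list.

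Regions in both Des+/+ lists only were lower. Fam13a had 15 reads in the basal and 27 in the swim list, Dab2ip, which encodes a RAS GTPase-activating protein, had 26 and 16, and Cltc, the clathrin heavy chain gene, had 25 and 17. Pcp4l1 had 24 and 18 reads. Fbxo32, the gene of the muscle ubiquitin ligase atrogin-1, had 22 and 24 reads. The tallest regions in both Des-/- lists only were of similar height, and the median over that pattern was also 18 reads. Rasa3, a further RAS GTPase-activating protein gene, had 25 and 22 reads, Steap3, a ferrireductase gene, 24 and 15, Prkch, a protein kinase C gene, 15 and 24, Aopep, an aminopeptidase gene, 24 and 18, and Auts2 22 and 15. Counting overlapping peaks outside the rule, the highest peak reached 46 reads among regions in both Des+/+ lists only and 48 reads among those in both Des-/- lists only.

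The patterns that follow were added after their values had been seen, and their tallest regions are named in the same way. Among regions missing from Des-/- swim alone, Ablim1, which encodes an actin-binding LIM protein, had 31, 33 and 23 reads in the other 3 lists, Jmjd1c 22, 33 and 15, and Camta1, a calmodulin-binding transcription factor gene, 33, 26 and 23. Among those missing from Des+/+ swim alone, Fyn, a SRC-family kinase gene, had 31, 22 and 15 reads in the other 3 lists, and Dlgap1 had 26, 31 and 23. The 16 regions in both swim lists only had at most 26 reads. They included Epas1, which encodes the hypoxia-inducible factor HIF-2α, with 19 and 16 reads, Pakap with 19 and 21, and the non-coding gene AC166654.1 near Sik1 with 25 and 15.

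**Figure D4:**
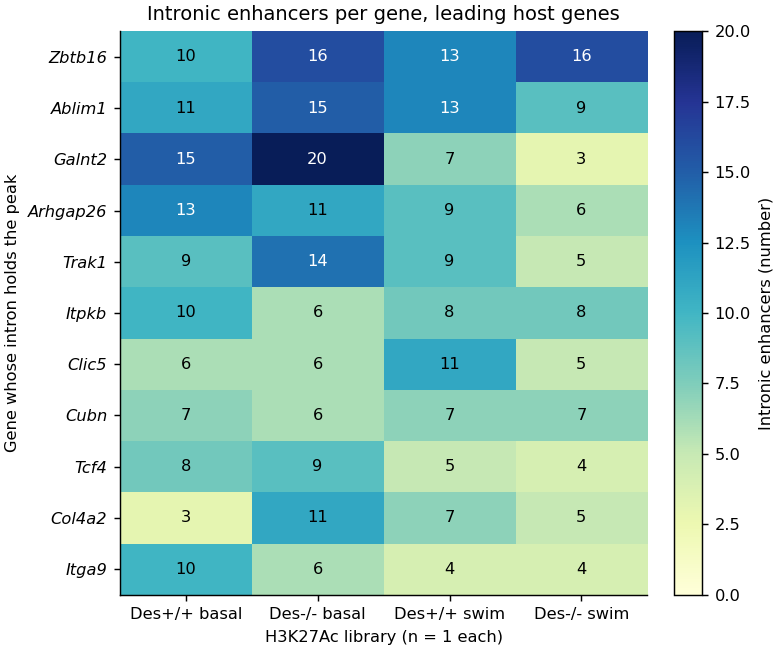
Number of intronic enhancers (colour and figure in each cell) in each of the 4 lists (columns) for 11 of the 12 host genes with the most enhancers. Zbtb16 has 16 in Des-/- swim, whereas Trak1 has 14 in Des-/- basal and 5 in Des-/- swim and Galnt2 has 20 and 3.

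Intronic enhancers were spread over 1126, 1194, 774 and 595 host genes in the 4 lists, in the order used above. A single enhancer was found in 58%, 58.2%, 60.7% and 61.5% of them, and 5 or more in 73, 77, 30 and 22. Zbtb16, which encodes the zinc finger transcription factor PLZF, had the most in all, with 10, 16, 13 and 16 in 15 merged regions, of which 8 were in all 4 lists. Ablim1 had 11, 15, 13 and 9. These genes are long, at 184 and 283 kb, so that per 100 kb they held 8.13 and 6.72 regions. Of the 11 leading hosts described here, Zbtb16 and Col4a2 had more enhancers in Des-/- swim than in Des+/+ basal, Cubn had 7, 6, 7 and 7, and the other 8 had fewer.

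Part of the Zbtb16 count in Des-/- swim came from a broad element listed in pieces. A peak too wide for the rule had 37, 39 and 48 reads in the other 3 lists, and at the same place Des-/- swim held 3 separate enhancers of 23, 32 and 16 reads. Its enhancers also lay in a dense run, and the largest cluster with gaps of at most 10 kb held 14 enhancers over 18.9 kb in Des-/- swim and 13 in Des+/+ swim. Clusters of 3 or more enhancers numbered 117, 128, 78 and 52 in the 4 lists and held 434, 477, 286 and 207 enhancers.

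Trak1 had its most enhancers in Des-/- basal and its fewest in Des-/- swim. It had 9, 14, 9 and 5 enhancers in the 4 lists, over 16 regions within 177 kb, or 9.02 regions per 100 kb. Only 2 of its regions were in all 4 lists. At chr9:121350865-121352899, the region printed above, heights were 29, 30 and 17 reads with no peak in Des-/- swim, and at chr9:121328456-121329390 they were 24, 28 and 16 reads with none in Des-/- swim. Itpkb, the gene of an inositol trisphosphate kinase, had 10, 6, 8 and 8 enhancers over 8 regions in a gene of 94.4 kb. One of its regions, at chr1:180398266-180400130, had 28, 56, 21 and 47 reads and so was higher in both Des-/- lists, while another, at chr1:180405836-180408039, had 52, 26, 18 and 25 reads and was highest in Des+/+ basal. In the basal pair the direction between genotypes was thus not the same for these 2 elements of one gene. In the swim pair Des-/- was higher at both.

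Col4a2, which encodes a basement membrane collagen, had 3, 11, 7 and 5 enhancers, and its region at chr8:11322756-11323951 had no peak in Des+/+ basal and 15, 20 and 29 reads in the other lists. Clic5, a chloride intracellular channel gene, had 6, 6, 11 and 5. Arhgap26, a GTPase-activating protein gene, had 13, 11, 9 and 6, and Itga9, an integrin gene, 10, 6, 4 and 4. Tcf4, which encodes a basic helix-loop-helix factor, had 8, 9, 5 and 4. Cubn encodes the endocytic receptor cubilin, and its region at chr2:13412788-13414731 had 36, 40, 30 and 22 reads. At this Cubn region the basal heights were above the swim heights, although the count of enhancers hardly differed between the lists.

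Galnt2 was named as host of 15, 20, 7 and 3 enhancers, but none of these 45 lay inside the RefSeq body of the gene. They fell in the first intron of 1 long deposited transcript and were spread over 3.91 Mb, with 11 other genes owning the nearest starts. For each of the other 10 leading hosts every enhancer lay inside the gene's RefSeq body, as did 6044 of 6455 (93.6%) over all enhancers whose host RefSeq held. The Galnt2 count is therefore a count for a stretch of its chromosome under the deposited annotation.

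**Figure D5:**
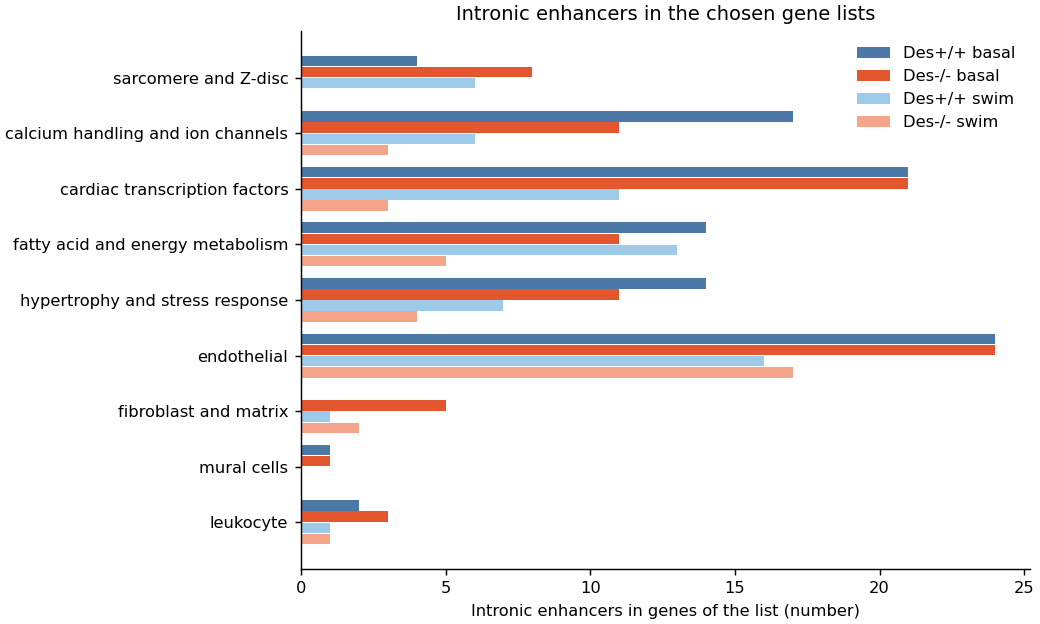
Number of intronic enhancers (horizontal axis) in host genes of 9 gene lists, with 1 bar for each of the 4 H3K27Ac lists. The bars of Des-/- swim, the list with the fewest enhancers, are the shortest for the 2 cardiomyocyte lists and cardiac transcription factors, with 0, 3 and 3 enhancers. They are also the shortest for metabolic and stress genes, with 5 and 4. Endothelial genes have 17 in Des-/- swim and 16 in Des+/+ swim.

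Hosts were next grouped by function and by cell type. Cardiomyocyte markers, made up of 43 sarcomere and Z-disc genes and 30 calcium handling and ion channel genes, held 21, 19, 12 and 3 intronic enhancers in the 4 lists. Endothelial markers held 24, 24, 16 and 17. The labelled cells were cardiomyocytes, and the promoter peaks of the cardiomyocyte genes Myh6, Tnnt2, Ttn, Ryr2 and Pln were in all 4 lists, while Actc1 had 23, 27 and 27 reads and no peak in Des-/- swim. Des itself had promoter heights of 30, 46, 24 and 37 reads, which does not check the deletion, since the mark at the promoter is not the gene product. Promoter peaks of the endothelial genes Pecam1 and Kdr were also in all 4 lists, while Cdh5 had 20 and 19 reads in the basal lists and no peak in the swim lists. Pdgfra, a fibroblast gene, had 16 and 15 reads in the basal lists and none in the swim lists. Col1a1, Dcn, Pdgfrb, Rgs5, Acta2, Ptprc and Csf1r, which mark fibroblasts, mural cells and leukocytes, had no promoter peak in any list. In all, 62, 61, 52 and 38 of the 73 cardiomyocyte markers had a H3K27Ac peak of any kind, against 28, 28, 26 and 26 of 30 endothelial markers. Fibroblast markers with any peak numbered 5, 14, 4 and 5 of 30. Promoter peaks of endothelial markers summed to 1064, 936, 607 and 783 reads over 28, 27, 23 and 24 genes, and those of sarcomere and Z-disc genes to 1276, 1257, 930 and 626 reads over 37, 37, 31 and 22 genes. The summed endothelial height was therefore higher in Des-/- swim than in Des+/+ swim, and that of sarcomere genes lower. The median per gene with a promoter peak was 23 reads in Des+/+ swim and 31 in Des-/- swim for endothelial markers. For sarcomere and Z-disc genes it was 24 and 22 reads. Over the promoter regions of all 4 lists the median log2 ratio of Des-/- swim over Des+/+ swim was 0.18. In a lysate of many cells, fewer cells of a type and less of the mark per cell cannot be told apart. Relative to all genes with a peak, of which 11.7%, 11.8%, 10.6% and 8.30% hosted an intronic enhancer, cardiomyocyte markers stood at 12.9% (6.69 to 23.4), 16.4% (9.16 to 27.6), 15.4% (8.01 to 27.5) and 5.26% (1.46 to 17.3), with intervals that overlapped one another. Endothelial genes stood at 32.1% (17.9 to 50.7), 32.1%, 26.9% and 26.9% (13.7 to 46.1).

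Within the cardiomyocyte markers, genes of calcium handling and ion channels held 17, 11, 6 and 3 enhancers. Cacnb2, the gene of a calcium channel β subunit, had 6, 4, 2 and 0, and its region at chr2:14833381-14836157 had 19, 21 and 15 reads and no peak in Des-/- swim. Jph2 encodes junctophilin, which ties the sarcoplasmic reticulum to the T-tubule, and had 5, 2, 2 and 0. Camk2d, the gene of the main cardiac calcium/calmodulin-dependent kinase, differed from these, with 2, 3, 1 and 2 enhancers and a region at chr3:126692187-126694667 of 35, 37, 29 and 26 reads in all 4 lists. Sarcomere and Z-disc genes held 4, 8, 6 and 0 enhancers. The 0 of Des-/- swim stood against 24 such genes that had a peak of any kind. A count of 0 of 24 leaves room for a share of 12.5%. That 0 does not mean an absence of peaks, since 1 region of this list, in Tpm1, was in all 4 lists. Tpm1 and Myoz2 each had 0, 1, 2 and 0 enhancers. Actn2 had 3, 2, 1 and 0, and the region printed above (chr13:12322388-12323290) had 21, 19 and 17 reads and none in Des-/- swim.

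Of the 37 merged regions in cardiomyocyte markers, 2 were in all 4 lists and 5 in both basal lists only. The basal list of Des+/+ or of Des-/- alone held 10 and 8. A further 4 were in both Des+/+ lists only and none in both Des-/- lists only. Over the regions of all named hosts, these shares were 16.2%, 12.9%, 16.8%, 19.7%, 3.05% and 1.66% in the same order. With a share of 1.66% over all hosts, none among 37 cannot be read as a difference between genotypes. Most of them were low, and at a height of at least 20 reads the markers held only 4, 3, 1 and 1 enhancers. With genes assigned by the nearest start in place of the host, the counts were 30, 23, 17 and 5.

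Genes of cardiac transcription factors held 21, 21, 11 and 3 enhancers. The share of these genes that hosted one was 31.2% (18 to 48.6), 38.7%, 31% and 13% (4.54 to 32.1), above that of all genes with a peak in the first 3 lists and within counting error of it in Des-/- swim. Mef2c had 3, 4, 1 and 0, and its region at chr13:83603216-83605353 had 25 and 19 reads in the basal lists and no swim peak. Gata4 had 2, 3, 0 and 0 enhancers, and Esrrg, an orphan nuclear receptor gene of oxidative metabolism, 4, 1, 2 and 0. Of 29 merged regions in this list, 3 were in all 4 lists, 8 in both basal lists only and 5 in all but Des-/- swim, that is 10.3%, 27.6% and 17.2%, against 16.2%, 12.9% and 9.54% of the 3314 regions of all named hosts. Metabolic genes held 14, 11, 13 and 5 enhancers. Cd36, the fatty acid uptake gene, had 6, 6, 5 and 3 of these, and its region at chr5:17842924-17845395 had 30, 24, 22 and 27 reads. Stress genes held 14, 11, 7 and 4. Bag3, a co-chaperone gene of the Z-disc, had 5, 4, 3 and 2, and its regions outside Des-/- swim included one at chr7:128536649-128537781 with 21, 20 and 16 reads.

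Endothelial hosts had about as many enhancers in Des-/- swim as in Des+/+ swim. Erg, an ETS factor gene, had 6, 4, 3 and 3, and its region at chr16:95447922-95450272 had 28, 26, 18 and 21 reads. Pecam1, which encodes the junction protein CD31, had 2, 2, 4 and 4, and the region printed above (chr11:106674157-106676291) had 39, 56, 19 and 23 reads. Fli1 and Ets1, further ETS factor genes, had 4, 3, 1 and 4, and 2, 7, 1 and 3. Of 43 merged regions in endothelial genes, 10 were in all 4 lists (23.3%), 5 were missing from Des+/+ swim alone (11.6%) and 3 from Des-/- swim alone (6.98%), against 16.2%, 4.50% and 9.54% over all named hosts. Of the 37 in cardiomyocyte markers these were 2, 0 and 2. Of the other cell types, fibroblast markers held 0, 5, 1 and 2 enhancers, mural markers 1, 1, 0 and 0, and leukocyte markers 2, 3, 1 and 1. Cx3cr1 made up 2, 2, 1 and 1 of the leukocyte counts. Its Des-/- swim enhancer of 42 reads, at chr9:120001331-120002163, lay outside the RefSeq body of the gene and nearest to the start of Csrnp1. Whether the cell mixture differed between libraries was not tested.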

How the data were processed

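Chromatin immunoprecipitation sequencing of H3K27Ac in isolated adult cardiomyocytes was analysed from the 4 deposited peak lists, 1 for each genotype and condition. Per the labels and the study's methods, the authors aligned single-end reads to GRCm38 (mm10), called peaks per library, with the input as control, using their laboratory's own code and annotated them with ChIPseeker. The submitters' processing notes name Bowtie2 2.4.4, SAMtools 1.13 and ChIPseeker 1.36.0. Bowtie2's defaults place a read that fits several positions at 1 of them. Duplicate removal, read extension and scaling of the input are not given in the sources used here, and library totals were not known. The height and input height deposited by the authors are coverage signals in whole reads. The deposited fold change is a ratio of height to input height, the deposited p-value and false discovery rate compare them, and width was read in bp. The distance of a peak to the nearest start is a signed score in bp as deposited by the authors. The deposited p-value and false discovery rate chose no peak here. The floor of 15 reads was taken from the files. At 15 reads the exact 95% Poisson interval is 8.40 to 24.7, and at 20 reads 12.2 to 30.9.

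Peaks were selected by the annotation, the distance, the width and the input height, and partners by an overlap of at least 1 bp. Host genes were named by the identifier in the annotation and otherwise by GENCODE vM21, whose coordinates equalled those deposited for 100% of the transcripts found in both. The hosts of 4 enhancers could not be named. Intergenic and promoter peaks had the same limits on width and input. Shares carry 95% Wilson intervals. The overlap code was tested on simulated data. Sequences and repeats came from GRCm38.p6, and promoter windows from RefSeq. The genes named in the text were the 12 hosts with the most enhancers, the 5 highest enhancers of each list, the 5 highest regions of each shared pattern, ranked by the highest peak within the rule and not by any overlapping peak, and up to 4 genes of each list with the most enhancers. Some genes that this rule names are not reported here. The members, gene lists and patterns were chosen with earlier results of these data known. Alternatives changed the distance, width, input and height limits, the overlap and the number of peaks compared. Python 3.11.15, pandas 2.3.3, SciPy 1.17.1, pysam 0.24.0 and matplotlib 3.10.9 were used. The lamin A/C lists entered only as an overlap.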

Additional observations from a re-analysis of the deposited data

Results flagged for a closer look

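The lamin A/C peak lists of the same cells were not part of any comparison above. In Des-/- swim, 5 intronic enhancers overlapped a lamin A/C peak of the same genotype and condition, against 0 and 2 in the basal lists of Des+/+ and Des-/- and 1 in the swim list of Des+/+. All 5 lay on chromosome 5 between 15 and 16 Mb, and were annotated to introns of Gm43391, Gm21847 and Speer4cos, although the 3 annotated to Gm21847 lay outside the RefSeq body of that gene. They had H3K27Ac heights of 15 to 22 reads and input heights of 4 to 9 reads. This stretch held 23 of the 1037 intronic enhancers of Des-/- swim and 0 of those of the other 3 lists, and 17 of them were annotated to Gm21847. The 0 does not mean an absence of peaks. At chr5:15598585-15599180 Des+/+ swim had a peak of 26 reads, which its input height of 12 reads kept outside the rule. The 1 Gm21847 window read here was 94.0% repeat sequence. Without this stretch, 35.3% of Des-/- swim enhancers had no Des+/+ swim partner, against 36.5% with it.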

How the results depend on the processing

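No paired analysis was possible because each genotype and condition had 1 library. Raising the distance limit to 10000 bp left 1378, 1464, 882 and 671 enhancers in Des+/+ basal, Des-/- basal, Des+/+ swim and Des-/- swim, and requiring a height of at least 20 reads left 731, 744, 383 and 342. At that height the shares without a partner in the other genotype were 11.6%, 13.3%, 24.8% and 16.4%, and those of basal enhancers without a swim partner 30.4% in Des+/+ and 40.9% in Des-/-. Counting a partner only when it was itself an intronic enhancer gave 39.7%, 42.6% and, for Des-/- swim, 42.5% without a genotype partner, and 58.8% of Des+/+ basal enhancers without a swim partner. When each pair of lists was reduced to equal numbers of its highest peaks, the genotype shares were 37.8% for Des+/+ basal and 34.5% for Des-/- basal, an order opposite to that with all peaks. On the same footing the share was 40.6% for Des-/- swim and 53.3% for Des+/+ swim, and basal enhancers without a swim partner came to 38.1% in Des+/+ and 40.4% in Des-/-. Removing the width or the input limit, or asking for an overlap of 50% of the shorter peak, moved none of these values beyond its counting interval or, for counts, by over 1.5 times.

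In the marker genes, a height of at least 20 reads left 4, 3, 1 and 1 enhancers in cardiomyocyte markers, 6, 6, 2 and 0 in cardiac transcription factors and 9, 6, 3 and 8 in endothelial markers, and assigning genes by the nearest start gave 5 in Des-/- swim for each of the first 2 lists. These alternatives were chosen after seeing the data. What a list holds near 15 reads depends on depth, which was not known.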

Other observations

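Rbm20, which encodes a splicing regulator of titin in heart muscle, was chosen after its values were seen. It hosted 7, 7, 6 and 0 intronic enhancers in Des+/+ basal, Des-/- basal, Des+/+ swim and Des-/- swim over 13 regions. At Rbm20 chr19:53697427-53698853 the heights were 30, 28 and 25 reads, with no peak in Des-/- swim, and the first of these peaks was outside the rule. Smg6, a gene of nonsense-mediated mRNA decay, hosted 7, 8, 4 and 0, and its region at chr11:75012695-75016758 had 23, 26 and 21 reads.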
